A study of Mus musculus with 3 samples.

Results

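The receptor RANK and its route to the transcription factors NFATc1, MITF and TFE3 were followed through the RNA of apoptotic bodies (ABs), the membrane-bound fragments that dying cells shed, at 3 stages of osteoclast formation. The members are 10 genes chosen by name: Tnfrsf11a (RANK itself), the adaptors Traf2, Traf3 and Traf6, the calcineurin subunits Ppp3ca and Ppp3r1, the factors Nfatc1, Mitf and Tfe3, and the kinase Akt1. All 10 were found among the 15861 genes of the mRNA table, with 57 of their 62 annotated transcripts, and all 10 had at least 20 reads over the 3 libraries, as 12713 genes did. The reads of all transcripts of a gene in the mRNA table were summed.

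There was 1 library for each group, all from bone marrow of C57BL/6 mice 11 weeks old. BMM-ABs came from bone marrow macrophages, made from floating marrow cells with M-CSF at 50 ng/ml for 72 h. pOC-ABs came from preosteoclasts, macrophages given M-CSF at 30 ng/ml and RANKL at 100 ng/ml for 24 h, and mOC-ABs from mature osteoclasts, given the same for 72 h or longer. By the labels all 3 cultures received alendronate at 500 μM for 12 h to induce apoptosis, so no group is free of an inducer. The paper instead names staurosporine and a later harvest of the mature cells. Titles in the labels are those of the cells, but the series is described as ABs, and the libraries were read here as ABs. Nothing says how many mice each culture held, and a culture of marrow macrophages given RANKL holds cells at several stages.

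RANKL binds RANK on the macrophage precursor, and the cytoplasmic tail of RANK recruits TRAF adaptors. TRAF6 is the adaptor needed for most RANK signalling to NF-κB and the MAP kinases, whereas TRAF2 and TRAF3 hold the kinase NIK in check in resting cells. Calcium released through phospholipase C gamma activates calcineurin, a phosphatase that strips phosphate from NFATc1 and lets it enter the nucleus. There NFATc1, the master factor of osteoclast formation, acts on its own gene and, with MITF and TFE3, on the genes for bone resorption.

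Wherever 3 values of a gene are given, they follow the order of the stages: first BMM-ABs, then pOC-ABs, last mOC-ABs. The mRNA table held 9100082, 7387317 and 7705592 reads. Levels are given in rpm, the reads of a gene per 1000000 reads of that table, and 3 reads, the floor used for a count of 0, are 0.330, 0.406 and 0.389 rpm. The lncRNA table held a further 28.5% to 37.7% of the reads of both tables. Most markers moved with the labels. The summed level of 10 listed osteoclast genes, read again below as genes that NFATc1 and MITF drive, was 184, 277 and 874 rpm. In mature against macrophage ABs, 7 of the 9 measured ones had a ratio above 2. The others, Clcn7 (85.4, 49.5 and 76.2 rpm) and Ostm1 (35.4, 21.9 and 26.0 rpm), were a large part of the sum in BMM-ABs and lower in mOC-ABs. The summed level of 7 macrophage markers was 4713, 2419 and 1293 rpm. In the same comparison 5 of its 6 measured genes had a ratio below 0.5, and Cd68 (729, 649 and 656 rpm) did not. Mertk had 0 reads in BMM-ABs, Oscar 0 in BMM-ABs and Itgb3 0 in mOC-ABs, and 5 listed markers of other marrow cells summed to between 3.89 and 6.77 rpm. A change in the share of a cell type in the culture, in the RNA of each cell and in what enters the ABs cannot be told apart in these libraries. M-CSF was at 50 ng/ml for BMM-ABs and at 30 ng/ml wherever RANKL was given. In G1 and G2 that dose and RANKL therefore cannot be told apart either. With 1 library per group no spread between samples exists and no test was made. The intervals given are exact Clopper-Pearson 95% intervals that cover counting error only.

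Comparisons are named G1 (pOC-ABs against BMM-ABs), G2 (mOC-ABs against BMM-ABs) and G3 (mOC-ABs against pOC-ABs), and any pair of them shares a library. A gene counted as past the limit when the ratio of its reads, each divided by the total of the mRNA table, lay above 2 or below 0.5, the fold limit of the study. Among the 10 members 0 passed in G1, 1 in G2 and 1 in G3, where 10.9%, 13.2% and 10.4% of all genes with at least 20 reads did. The gene that passed was Nfatc1, both times with a higher level in mOC-ABs. The median log2 ratio of the members was 0.03 (G1), 0.12 (G2) and 0.19 (G3), beside -0.02, -0.05 and -0.05 over all genes. The counting interval left out 0 for 7, 8 and 7 of the 10 members, beside 56.5%, 55.6% and 49.1% of all genes, so a difference beyond counting error was common at this depth.

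**Figure D1:**
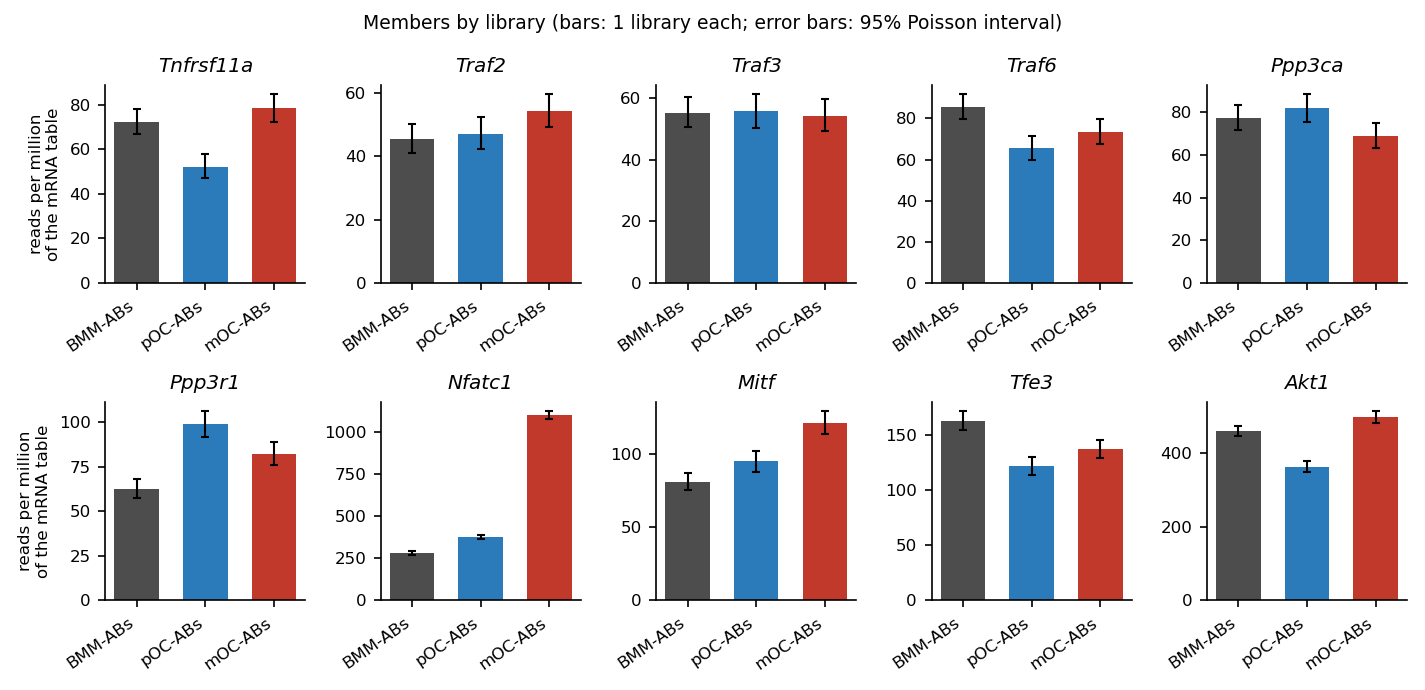
Level in rpm (vertical axis, starting at 0 and scaled to each gene) for the 10 members in the 3 libraries (grey BMM-ABs, blue pOC-ABs, red mOC-ABs), with 1 library per bar and 95% Poisson intervals of the read count. Nfatc1 goes from 282 to 375 to 1098 rpm, whereas Traf3 stays between 54.2 and 55.6 rpm.

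The plot of levels by library shows 3 shapes that the next paragraphs take in turn. Nfatc1 and Mitf were highest in mOC-ABs, Tnfrsf11a, Traf6, Tfe3 and Akt1 were lowest in pOC-ABs, and Ppp3r1 was highest in pOC-ABs. Traf2, Traf3 and Ppp3ca differed less over G1, G2 and G3, with rounded log2 ratios from -0.25 (Ppp3ca in G3) to 0.25 (Traf2 in G2). The intervals of both these end values left out 0.

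Tnfrsf11a, which encodes RANK (GRCm38 chromosome 1, 105780718 to 105847981, plus strand), had 657, 386 and 603 reads, or 72.2, 52.3 and 78.3 rpm. The receptor's RNA was thus listed before any RANKL was given, and its level in pOC-ABs was 0.724 times that in BMM-ABs. Its log2 ratio was -0.47 (interval -0.65 to -0.28) in G1 and 0.58 (0.40 to 0.77) in G3, where 91.2% of genes lay lower, but 0.12 (-0.05 to 0.28) in G2, with 0 inside. The full-length coding transcript Tnfrsf11a-201 took 611, 353 and 569 of the reads, and the remainder lay on a pair of transcripts with a retained intron.

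TRAF6, the adaptor that carries most of the RANK signal (Traf6, chromosome 2, 101678429 to 101701669, plus strand), had 779, 483 and 565 reads, or 85.6, 65.4 and 73.3 rpm. Both later libraries lay below BMM-ABs, with log2 ratios of -0.39 (-0.56 to -0.22) in G1 and -0.22 (-0.38 to -0.07) in G2. G3 was 0.17 (-0.01 to 0.34). Traf6-201 held 96.1%, 96.7% and 96.5% of the gene's reads, so its make-up was nearly the same in the 3 libraries.

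TRAF2, which joins TRAF3 and the cIAP ligases (Traf2, chromosome 2, 25517982 to 25546940, minus strand), had 413, 347 and 417 reads, or 45.4, 47.0 and 54.1 rpm. Its log2 ratio was 0.05 (-0.16 to 0.26) in G1 and 0.25 (0.05 to 0.45) in G2. Below the gene sum, Traf2-202 with 508 codons held 69.5%, 86.5% and 83.9% of the reads, and Traf2-201 with 501 codons had 95, 18 and 60 reads. The retained-intron transcript Traf2-203 had 31, 29 and 7 reads.

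TRAF3, the adaptor that presents NIK for degradation (Traf3, chromosome 12, 111166370 to 111267153, plus strand), was the steadiest member. It had 503, 411 and 418 reads, or 55.3, 55.6 and 54.2 rpm, and its log2 ratios were 0.01, -0.03 and -0.04 in G1, G2 and G3, each with an interval that held 0. Its transcripts were not steady. Traf3-201 with 567 codons had 252, 148 and 313 reads, while Traf3-202 with 542 codons had 184, 160 and 0 and Traf3-203, also with 542 codons, had 1, 73 and 19. The short coding transcript Traf3-204 with 97 codons had 45, 22 and 77 reads. The 3 long forms share nearly all of their exons, and how far the estimate could divide reads between them was not tested. Summed as FPKM, in which the 645 bases of Traf3-204 weigh more per read than the long forms, the gene gave log2 ratios of -0.33, 0.49 and 0.82 in place of those near 0.

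Calcineurin is a dimer of a catalytic and a regulatory subunit, and the members hold an example of each. The catalytic subunit gene Ppp3ca (chromosome 3, 136670124 to 136937727, plus strand) had 705, 605 and 532 reads, or 77.5, 81.9 and 69.0 rpm. Its log2 ratio was 0.08 (-0.08 to 0.24) in G1, -0.17 (-0.33 to -0.0018) in G2 and -0.25 (-0.42 to -0.08) in G3. The regulatory subunit gene Ppp3r1 (chromosome 11, 17159263 to 17200375, plus strand) had 569, 729 and 632 reads, or 62.5, 98.7 and 82.0 rpm. At 0.66 (0.50 to 0.82) its log2 ratio in G1 was the highest of the 10 members, a fold of 1.58, and 88.6% of genes lay lower. Had the limit been 1.5, Ppp3r1 would have been the only member past it in G1, where 13.9% of genes lay above 1.5. In G2 and G3, with 10.3% and 8.75% of genes above 1.5, Nfatc1 alone would have passed it, and Mitf in G2 and Tnfrsf11a in G3 lay just below it, both at a log2 ratio of 0.58. In G2 Ppp3r1 stood at 0.39 (0.23 to 0.56). The other catalytic subunit genes Ppp3cb and Ppp3cc were named after their values were seen. In G1 they stood at 0.71 (0.56 to 0.87) and 0.68 (0.34 to 1.02), near Ppp3r1 rather than Ppp3ca. This did not hold for Ppp3cb elsewhere. In G2 Ppp3cb stood at -0.07 (-0.25 to 0.11), nearer Ppp3ca, and Ppp3cc at 0.41 (0.06 to 0.76). In G3 they stood at -0.78 and -0.27. Wdr92, on the same strand, overlaps Ppp3r1 and had 148, 114 and 120 reads of its own.

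Nfatc1 (chromosome 18, 80606205 to 80713071, minus strand) had 2566, 2772 and 8463 reads, or 282, 375 and 1098 rpm. Its level in mOC-ABs was about 3.9 times (3.73 to 4.07) that in BMM-ABs and 2.93 times (2.80 to 3.06) that in pOC-ABs. The log2 ratios were 1.96 (1.90 to 2.03) in G2, the rank 171 of 12709 genes, and 1.55 (1.49 to 1.61) in G3, rank 207 of 12703. The step from BMM-ABs to pOC-ABs was smaller at 0.41 (0.33 to 0.49), which 79.1% of genes lay below. So of the difference between macrophage and mature osteoclast ABs, most lay between pOC-ABs and mOC-ABs. The summed osteoclast genes were likewise highest in mOC-ABs, at 874 rpm, and their part in the Nfatc1 values was not tested.

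**Figure D2:**
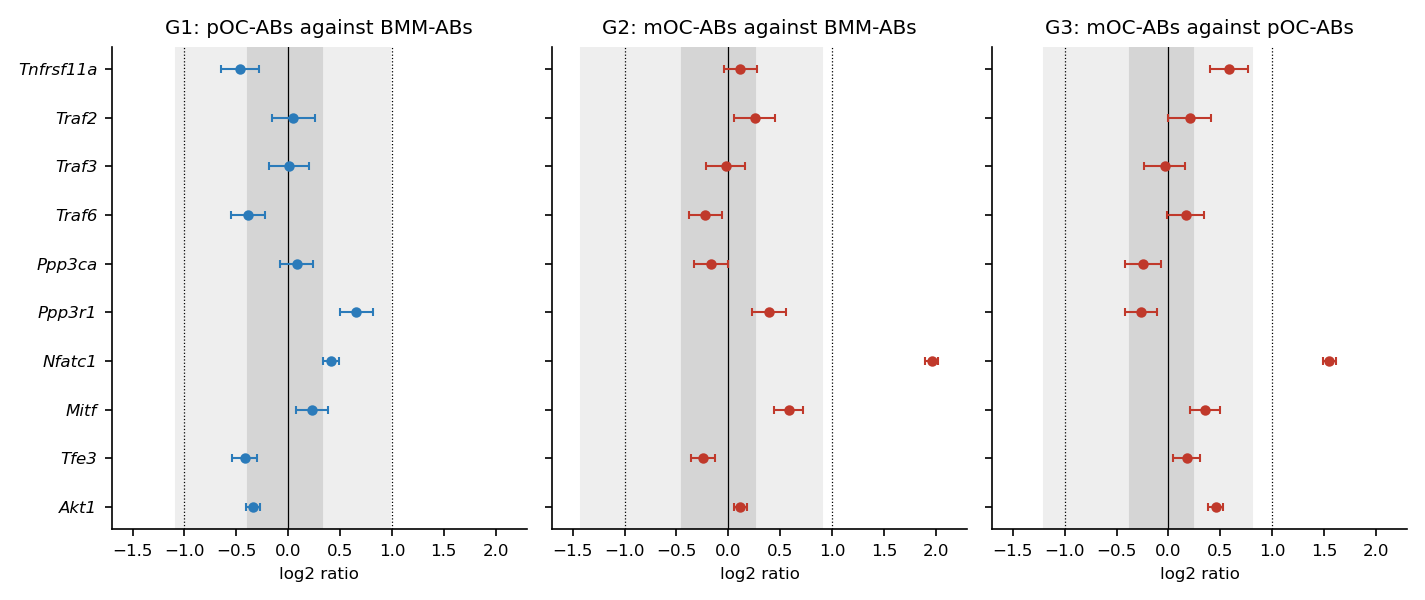
Log2 ratios of the 10 members in G1, G2 and G3 (horizontal axis) with exact 95% counting intervals, over grey bands that hold the middle 50% (dark) and 90% (light) of all genes with at least 20 reads, and dotted lines at the fold limit of 2. Nfatc1 lies outside the light band in G2 (1.96) and G3 (1.55), and the other members lie inside it in all 3 comparisons.

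The plot of log2 ratios sets each member against all genes of its comparison. Apart from Nfatc1, the members' ratios ran from -0.47 (Tnfrsf11a) to 0.66 (Ppp3r1) in G1, from -0.25 (Tfe3) to 0.58 (Mitf) in G2 and from -0.27 (Ppp3r1) to 0.58 (Tnfrsf11a) in G3. In G2 Mitf was the second highest, and 89.5% of all genes lay below it.

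Nfatc1 is known to be read from an upstream and a downstream promoter and to end at a near or a far polyadenylation site, giving proteins with a shorter or longer tail. The 4 listed transcripts of the 7 annotated ones cover each start and each end. Nfatc1-201, which starts downstream and stops at the near end (80647435), encodes 703 codons and had 518, 800 and 3494 reads. Nfatc1-203 has the same start but runs to the far end (80606205), encodes 925 codons and had 929, 768 and 1457 reads. From the upstream start came Nfatc1-204 with 939 codons (543, 795 and 1990 reads) and Nfatc1-202 with 827 codons (576, 409 and 1522 reads), both to the far end.

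Sorted by end, the near-end transcript took 20.2% (18.6% to 21.8%), 28.9% (27.2% to 30.6%) and 41.3% (40.2% to 42.3%) of the Nfatc1 reads, a larger share at each stage. Its log2 ratio in G2 was 2.99 (2.86 to 3.13), against 1.52 (1.44 to 1.59) for the far-end transcripts together. Sorted by start, the shares hardly moved, and the upstream start held 43.6%, 43.4% and 41.5% of the reads. The log2 ratio in G2 was 1.89 (1.79 to 1.99) from the upstream start and 2.01 (1.93 to 2.10) from the downstream start. By reads the leading form was Nfatc1-203 in BMM-ABs and Nfatc1-201 in mOC-ABs, while in pOC-ABs the share intervals of Nfatc1-201, Nfatc1-204 and Nfatc1-203 overlapped. The reads of these transcripts were divided by an estimate between forms that share most exons, and how far that affects the shares was not tested.

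**Figure D3:**
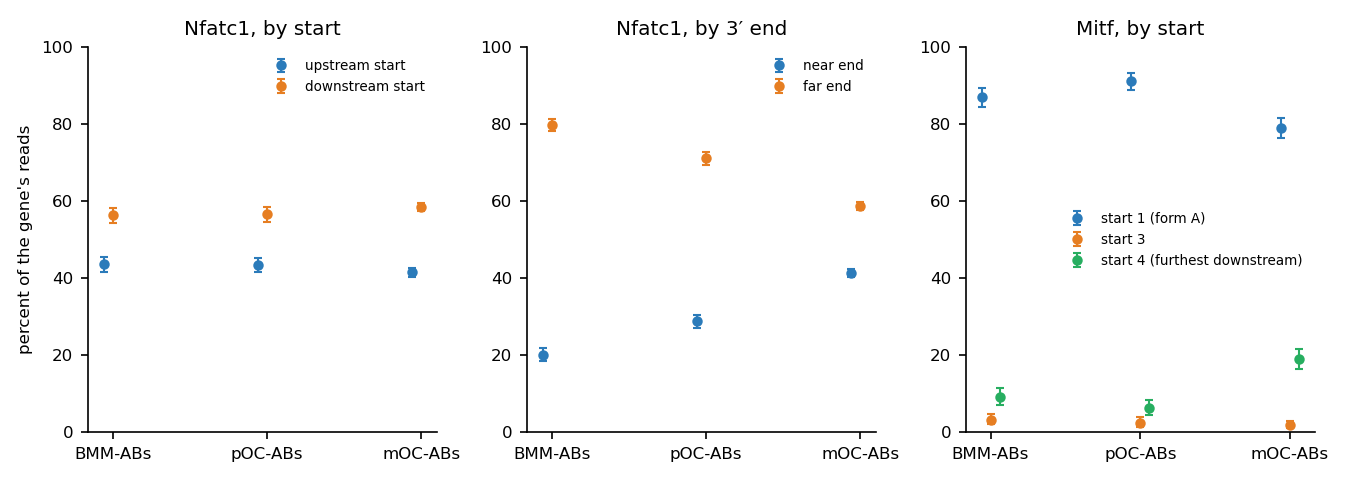
Share of the gene's reads (percent, vertical axis) by transcript start and 3′ end for Nfatc1 and by start for Mitf in the 3 libraries, with exact 95% binomial intervals. The near end of Nfatc1 goes from 20.2% to 41.3% while its starts stay level, and the furthest downstream start of Mitf holds 9.10%, 6.29% and 19.0%.

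The plot of starts and ends places this beside Mitf, which encodes a basic helix-loop-helix leucine zipper factor of osteoclasts, melanocytes and mast cells. Mitf (chromosome 6, 97807052 to 98021349, plus strand) had 736, 700 and 932 reads, or 80.9, 94.8 and 121 rpm. Its level was highest in mOC-ABs, with log2 ratios of 0.23 (0.08 to 0.38) in G1, 0.58 (0.44 to 0.72) in G2 and 0.35 (0.21 to 0.50) in G3. Most reads lay on Mitf-202, the long A form with 526 codons, which starts furthest upstream and is widely expressed. It had 542, 574 and 634 reads, and its log2 ratio was 0.47 (0.30 to 0.63) in G2.

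The start furthest downstream, which in melanocytes gives the M form, held 67, 44 and 177 reads, or 9.10%, 6.29% and 19.0% of the gene. Its log2 ratio was 1.64 (1.23 to 2.07) in G2 and 1.95 (1.46 to 2.46) in G3, against 0.44 (0.29 to 0.60) and 0.15 (-0.01 to 0.30) for the upstream start. Of these reads, Mitf-205, which the annotation calls a target of nonsense-mediated decay with 105 codons, had 26, 26 and 127. Mitf-208 with 357 codons had 41, 18 and 42, and Mitf-201, the M form with 419 codons, had 0, 0 and 8. The retained-intron transcript Mitf-206 had 91, 56 and 66 reads. At 3 loci inside or across Mitf the lncRNA table listed a further 194, 60 and 110 reads, which would make the G1 ratio 0.01 and the G2 ratio 0.40 if added.

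These starts are shown with those of Tfe3, whose transcripts also begin at different places. Each sequence is the 250 bases before a RefSeq transcript start, from RefSeq on GRCm38.p6, 5′ to 3′ on the plus strand, and capitals mark GGAAA or its reverse complement TTTCC, the core bases that NFAT proteins bind. A window was given for 8 of the 10 members.
Mitf A form, chr6:97806808-97807057: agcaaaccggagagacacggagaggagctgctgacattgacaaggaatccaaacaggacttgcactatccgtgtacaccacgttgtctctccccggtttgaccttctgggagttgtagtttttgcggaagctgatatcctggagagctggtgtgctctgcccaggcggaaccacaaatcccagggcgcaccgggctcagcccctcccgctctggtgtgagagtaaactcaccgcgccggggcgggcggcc
Mitf M form, chr6:97991533-97991782: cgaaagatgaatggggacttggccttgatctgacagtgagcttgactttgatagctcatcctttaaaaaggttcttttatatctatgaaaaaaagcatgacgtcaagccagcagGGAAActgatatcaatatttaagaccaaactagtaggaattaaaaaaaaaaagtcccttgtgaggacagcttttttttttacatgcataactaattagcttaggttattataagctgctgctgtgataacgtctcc
Tfe3 upstream start, chrX:7762411-7762660: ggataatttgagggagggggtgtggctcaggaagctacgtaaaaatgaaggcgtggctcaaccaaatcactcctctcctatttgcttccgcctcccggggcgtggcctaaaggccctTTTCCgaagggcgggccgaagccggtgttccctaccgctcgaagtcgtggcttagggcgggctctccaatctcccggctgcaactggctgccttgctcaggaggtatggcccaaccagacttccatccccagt
Tfe3 downstream start, chrX:7763693-7763942: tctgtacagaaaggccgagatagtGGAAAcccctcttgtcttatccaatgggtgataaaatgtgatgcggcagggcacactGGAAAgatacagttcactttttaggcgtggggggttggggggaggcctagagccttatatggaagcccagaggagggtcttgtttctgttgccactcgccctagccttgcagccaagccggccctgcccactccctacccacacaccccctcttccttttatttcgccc

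The Mitf A window held no GGAAA on either strand, and the M window held 1, 136 bases before the start. Another Mitf window, from 97929567 to 97929816, is not printed and also held 1, 47 bases before its start. The Tfe3 upstream window held 1, at 133 bases, and the Tfe3 downstream window 2, at 226 and 169 bases. That downstream window lies before a RefSeq start at 7763943, whereas Tfe3-203 starts at 7764041. Of 32851 windows of the same length 55.6% held GGAAA or TTTCC, so such a match is common. The E-boxes CACGTG and CATGTG, which MiT/TFE factors bind, were in none of the 4 printed windows on either strand, and 6.02% and 12.3% of all windows held them. G and C made up 59.6% of the Mitf A window and 36% of the M window, beside a median of 52.4%. These matches are letters in a window, and the libraries hold no measure of binding.

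Tfe3, which encodes a sister factor of MITF (chromosome X, 7762560 to 7775202, plus strand), had 1483, 899 and 1058 reads, or 163, 122 and 137 rpm. Summed over its 14 listed transcripts it was lower in pOC-ABs and mOC-ABs than in BMM-ABs. The log2 ratios were -0.42 (-0.54 to -0.30) in G1, -0.25 (-0.36 to -0.13) in G2 and 0.17 (0.04 to 0.30) in G3. These directions belonged to the sum over all transcript types. Over protein-coding transcripts alone the ratios were 0.38, 0.07 and -0.31, the opposite sign each time. Retained-intron transcripts had 609, 75 and 260 reads, or 41.1%, 8.34% and 24.6% of the gene, while over all genes of the table they held 5.23%, 4.21% and 3.85%. The largest of them, Tfe3-208, had 434, 29 and 122 reads. Coding and retained-intron transcripts of Tfe3 overlap, and how far the estimate could divide reads between them was not tested.

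In pOC-ABs a single transcript stood out. Tfe3-203, with 467 codons from the downstream start, had 35, 709 and 23 reads, which was 2.36%, 78.9% and 2.17% of the gene. Tfe3-206 and Tfe3-211, each also with 467 codons but from the upstream start, had 226, 27 and 236 and 140, 3 and 120 reads. Grouped by start, the upstream starts had 822, 118 and 723 reads and the downstream group that holds Tfe3-203 had 218, 751 and 211. Tfe3-208 (434, 29 and 122 reads) and Tfe3-210 (9, 1 and 2) start further downstream and lie in neither group. The high value of the downstream group in pOC-ABs lay on Tfe3-203. In the same group Tfe3-204, also with 467 codons, had 101, 15 and 114 reads, and Tfe3-205 had 69, 11 and 67. Both were lowest in pOC-ABs, as the upstream forms named were, while Tfe3-214 had 13, 16 and 7. The change was thus not shared by the downstream start as a whole. The pOC-AB library thus stood apart from both others at this gene, and with 1 library per stage a feature of the stage and a feature of the library cannot be told apart. The values of single Tfe3 transcripts also rest on how the estimate divided reads between overlapping forms, which was not tested.

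**Figure D4:**
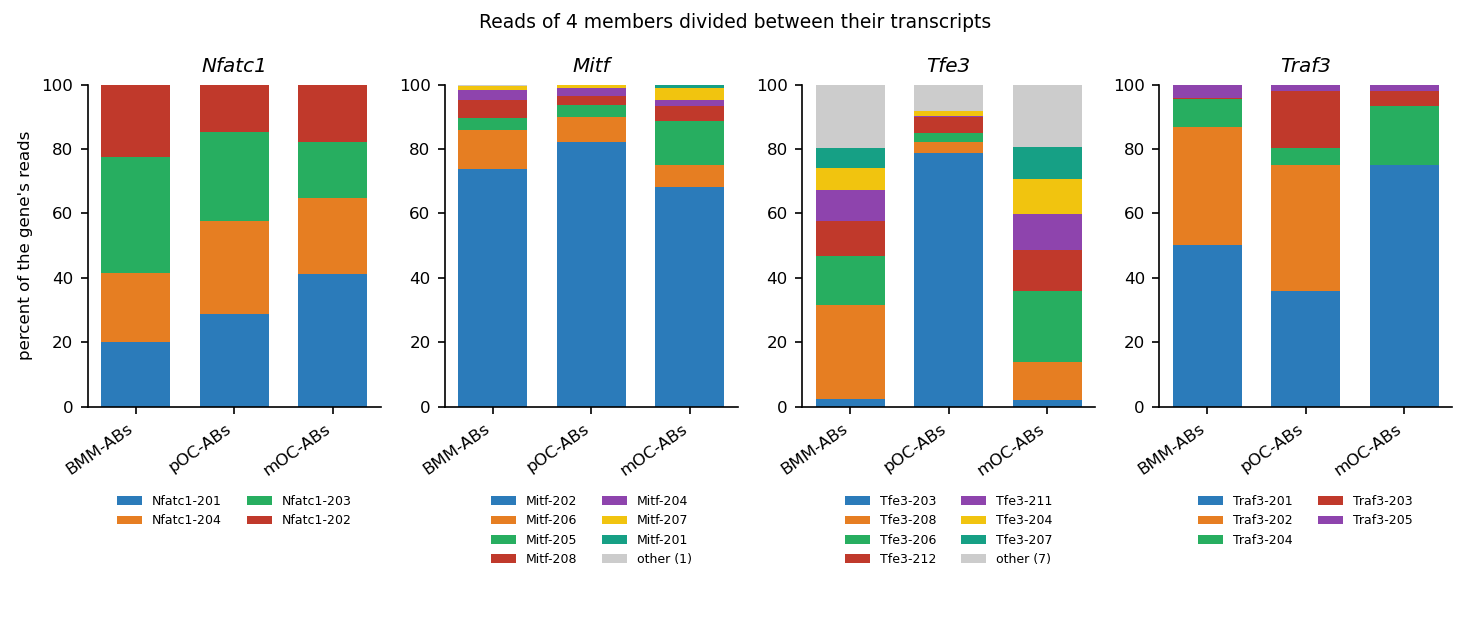
Percent of the gene's reads (vertical axis) on the listed transcripts of Nfatc1, Mitf, Tfe3 and Traf3 in the 3 libraries, stacked to 100. For Mitf and Tfe3 the transcripts with the fewest reads are pooled as other. Nfatc1-201 reaches 41.3% in mOC-ABs, Tfe3-203 takes 78.9% in pOC-ABs alone, and Traf3-202 is at 36.6%, 38.9% and 0%.

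The plot of transcript shares shows these 4 genes side by side, each with a division of reads that differed between libraries. Of the 57 listed transcripts of the members, 44 had at least 20 reads, and 17, 13 and 27 of them passed the limit of 2 in G1, G2 and G3. These are 38.6%, 29.5% and 61.4%, beside 36.6%, 38.4% and 36.2% of all transcripts of the table. In G3 the share lay above that of all transcripts, with 21 of the 27 higher in mOC-ABs. Overlapping transcripts of a gene share reads, which is not particular to Tfe3. Leaving out Tfe3 alone, the shares were 21.2%, 36.4% and 48.5% of 33, while nothing was left out of the count over all transcripts. In G1 and G2 the members' transcripts thus stood near or below all transcripts in this count.

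Akt1, a kinase that acts below PI3K in survival and growth signalling (chromosome 12, 112653821 to 112674884, minus strand), was the member with the most reads in BMM-ABs. It had 4167, 2677 and 3827 reads, or 458, 362 and 497 rpm, with its lowest level in pOC-ABs. Its log2 ratio was -0.34 (-0.41 to -0.27) in G1, 0.12 (0.05 to 0.18) in G2 and 0.45 (0.38 to 0.53) in G3. The main form Akt1-201 had 3724, 2277 and 3456 reads, and Akt1-208 had 231, 266 and 184.

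Levels of different genes were compared per length, as the deposited FPKM summed over each gene's transcripts. In BMM-ABs the order was Akt1 (219 FPKM), Nfatc1 (60.7), Tfe3 (48.1), Mitf (27.3), Ppp3r1 (22.6), Tnfrsf11a (19.5), Traf2 (18.9), Ppp3ca (17.6), Traf3 (15.9) and Traf6 (15.1). Each neighbour from Ppp3r1 downward overlapped the next in its counting interval, so the lower end has no firm order. In pOC-ABs Akt1 (186 FPKM) and Nfatc1 (80.6) again led, then Tfe3 (45.5), Ppp3r1 (34.8) and Mitf (27.5), ahead of Traf2 (20.6), Ppp3ca (18.3), Tnfrsf11a (14.3), Traf3 (12.6) and Traf6 (11.7). In mOC-ABs Nfatc1 (237 FPKM) had drawn level with Akt1 (236), and their intervals overlapped. They were followed by Tfe3 (43.0) and Mitf (42.1), which also overlapped, and by Ppp3r1 (28.9), Traf2 (23.9), Traf3 (22.3), Tnfrsf11a (19.2), Ppp3ca (16.7) and Traf6 (13.1). By point values the receptor, its adaptors and Ppp3ca were thus the lower part of the order at each stage. The nuclear factors, Akt1 and Ppp3r1 were the upper part, with Ppp3r1 above Mitf in pOC-ABs. In BMM-ABs the intervals of Ppp3r1 and Tnfrsf11a overlapped, so the parts are not firmly divided there. Short transcripts weigh more per read in these sums, and Traf3-204 gave 15.5 of the 22.3 FPKM of Traf3 in mOC-ABs. In percentiles of all genes by FPKM, Nfatc1 stood at 89.8, 92.1 and 97.3 and Tnfrsf11a at 66.6, 58.6 and 67.0.

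The genes most like a member were sought by the Euclidean distance between their log2 ratios in G1 and G2, over 3 libraries and among 9881 protein-coding genes with at least 100 reads. For Nfatc1 these were Gm49378 (101, 111 and 332 reads, distance 0.025), the collagen gene Col27a1 (27, 30 and 90 reads, 0.043) and Epn2, an epsin of endocytosis (224, 255 and 753 reads, 0.080). For Tnfrsf11a they were Orai1, the pore of store-operated calcium entry (144, 85 and 132 reads, 0.0070), Fam118b (210, 123 and 191 reads, 0.014) and Ginm1 (81, 48 and 74 reads, 0.014). With at least 500 reads, 2 of the 3 named for Nfatc1 and 1 of the 3 named for Tnfrsf11a were named again. With 3 libraries such a likeness is a description of 3 values.

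The rest of the pathway was read through 8 lists of 95 genes, of which 84 had at least 20 reads. In these lists 1, 0 and 1 genes had a ratio above 2 in G1, G2 and G3, beside 4.87%, 4.15% and 3.5% of all genes, and 3, 4 and 0 a ratio below 0.5, beside 6.07%, 9.01% and 6.86%. Their median log2 ratio was -0.04, -0.04 and -0.02.

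The ligands and cytokine receptors gave 3 of the genes below 0.5 in G1 and in G2. Csf1r, the receptor of M-CSF, had 9870, 2640 and 3902 reads, with a log2 ratio between -1.66 and -1.54 in G1 and of -1.10 (-1.15 to -1.05) in G2. Tnfrsf1b, the second TNF receptor, had 703, 181 and 138 reads (-1.66 and -2.11). Csf1 itself had only 13, 4 and 5 reads, with point ratios of -1.40 and -1.14 and counting intervals that held 0. Tnfrsf1a, with 853, 404 and 463 reads, stayed within the limit. The macrophage markers were also lower in both RANKL libraries, and their part in these values was not tested. Both RANKL cultures also had the lower M-CSF dose, which cannot be told apart from RANKL here. Lgr4 had under 20 reads, and Tnfsf11 (RANKL), its decoy Tnfrsf11b and Il1r1 were not analysed here.

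None of the 19 measured genes among the other TRAFs and RANK-proximal adaptors and kinases passed the limit in any comparison. The autophagy receptor Sqstm1 had 8109, 6454 and 5598 reads (log2 ratio -0.29 in G2) and Tax1bp1 1171, 1187 and 1033 (0.06). Likewise 0 of 10 MAP kinase genes passed, with Mapk3 (ERK1) at 1802, 1448 and 1493 reads (-0.03 in G2) and Map2k1 at 1152, 945 and 925 (-0.08). Among 16 genes of PI3K and Akt signalling 0 passed. Inpp5d, the lipid phosphatase SHIP1, had 2986, 1784 and 2459 reads (-0.04 in G2).

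Upstream of calcineurin, 15 genes of calcium entry and phospholipase C gamma were measured. Itpr2, a calcium release channel, had 4528, 2520 and 4127 reads (-0.54 in G1) and Plcg2 had 3046, 1845 and 2083 (-0.42). Of 6 other calcineurin subunits and regulators 0 passed, with Cabin1, an inhibitor, at 2123, 1295 and 1629 reads and Chp1, a relative of the regulatory subunit, at 846, 597 and 983.

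Of 7 other NFATs and NFAT kinases, Dyrk2, a kinase that phosphorylates NFAT, had 481, 243 and 522 reads and stood at 1.04 (0.82 to 1.27) in G3. Nfat5 (4924, 3251 and 3962 reads) and Csnk1a1 (2027, 1662 and 1654 reads) stayed within the limit, with -0.07 and -0.05 in G2. No other NFAT gene with at least 20 reads passed the limit as Nfatc1 did. Among 7 genes of other MiT/TFE factors and their regulators, Tfeb had 545, 225 and 223 reads and log2 ratios of -0.98 (-1.21 to -0.75) in G1 and -1.05 (-1.28 to -0.82) in G2. The 14-3-3 genes Ywhaz (1685, 2110 and 1890 reads, 0.41 in G2) and Ywhab (1840, 1879 and 1730 reads, 0.15), whose proteins hold these factors in the cytoplasm, did not pass. Within this family Mitf was thus higher, Tfeb lower and Tfe3 lower in sum in mOC-ABs than in BMM-ABs.

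Below the factors, 9 genes that NFATc1 and MITF are known to drive in osteoclasts were measured, and 4, 7 and 6 of them had a ratio above 2 in G1, G2 and G3. They are the same 9 osteoclast genes that were given above as markers, so this is not a separate observation. Their median log2 ratio was 0.98, 2.72 and 1.87, which is the same with Oscar, at 0 reads in BMM-ABs, set against 3 reads there. Acp5, the enzyme TRAP, had 88, 292 and 2157 reads and log2 ratios of 2.03 (1.68 to 2.39) in G1 and 4.86 (4.55 to 5.18) in G2. Atp6v0d2, a subunit of the proton pump, had 187, 873 and 2338 reads (2.52 in G1 and 3.88 in G2). These were already higher in pOC-ABs, where Nfatc1 differed by 0.41 on the log2 scale.

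Ctsk, the collagenase cathepsin K, had 180, 171 and 1001 reads, with 0.23 (-0.08 to 0.54) in G1 and 2.49 (2.25 to 2.73) in G3. Like Nfatc1 it differed mostly between pOC-ABs and mOC-ABs. Mmp9 had 8, 17 and 107 reads (2.59 in G3), the fusion gene Ocstamp 32, 42 and 160 (1.87), and the receptor gene Oscar 0, 7 and 49 (2.75). Dcstamp, the other fusion gene, had 72, 115 and 138 reads and 1.18 (0.76 to 1.61) in G2. Clcn7 and Ostm1, the chloride channel of the resorbing membrane and its partner, had 777, 366 and 587 and 322, 162 and 200 reads and lay lower in mOC-ABs than in BMM-ABs, although Clcn7 was higher there than in pOC-ABs, at 0.62 (0.43 to 0.81) in G3. Itgb3 had under 20 reads, and Calcr was not analysed here.

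**Figure D5:**
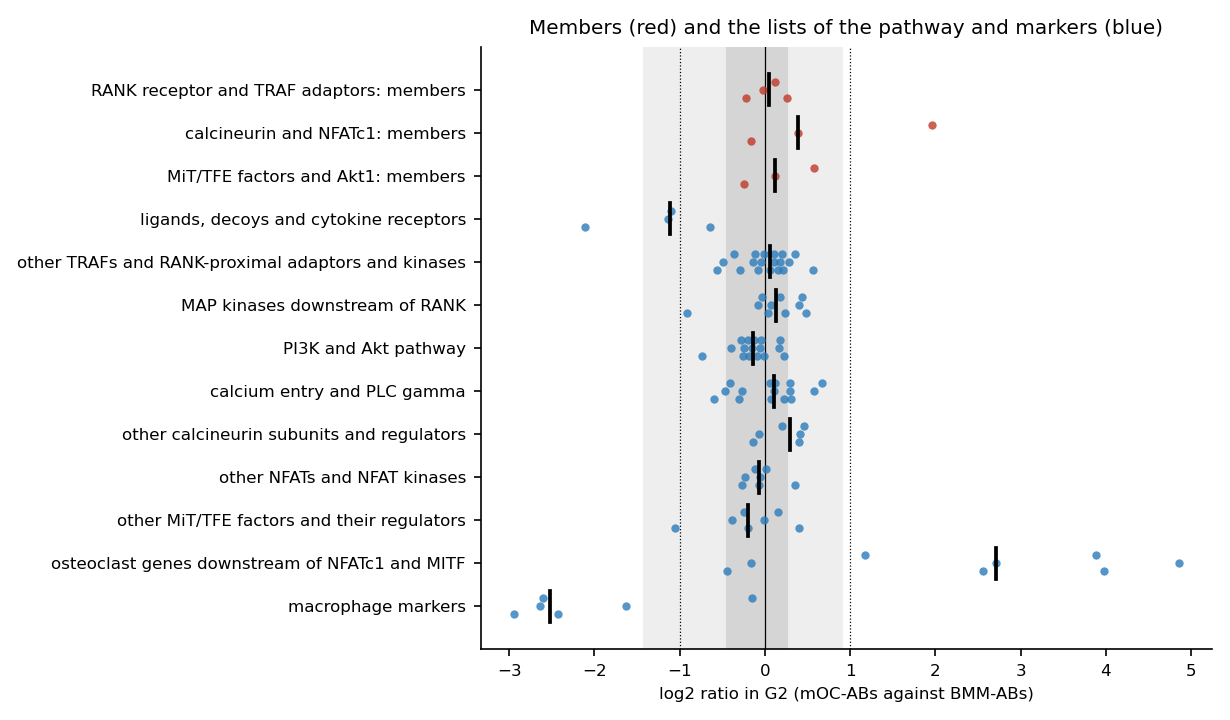
Log2 ratio in G2 (mOC-ABs against BMM-ABs, horizontal axis) of each measured member (red) and list gene (blue), with black bars at the list medians, grey bands for the middle 50% and 90% of all genes, and dotted lines at the fold limit of 2; Oscar, at 0 reads in BMM-ABs, is not drawn as a point. Nfatc1 at 1.96 stands apart from the signalling lists, of which the ligands and receptors have a median of -1.12 and the others medians near 0, and beside the osteoclast genes, whose median is 2.72, while the macrophage markers have a median of -2.52.

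The plot of the pathway lists shows the order of the axis from receptor to target. Of the 10 members and 84 signalling genes drawn, Nfatc1 alone lay above the limit in G2.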

How the data were processed

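ABs of BMMs, pOCs and mOCs were profiled by paired-end sequencing of RNA selected on poly-T beads, with 1 library per group. Per the labels the tools were FastQC, HISAT2 and StringTie on GRCm38, and their versions and settings are not given in the sources used here. The authors deposited read counts per transcript for mRNAs and lncRNAs. The authors also deposited FPKM, which in the median over transcripts equals the reads over the GENCODE M21 length, scaled to all reads of the mRNA table. Nfatc1-204 departs from this in the same proportion in each library, as with a longer transcript than that of M21. The circRNA table holds the authors' junction read counts and a normalised score (SRPBM), which was not used. Strand of the libraries is not stated.

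Of 56651 mRNA transcripts, 56440 were matched to GENCODE M21 by identifier, and the reads of a gene's transcripts were summed (Python 3.11.15, pandas 2.3.3). Ratios of reads over table totals carry exact Clopper-Pearson 95% intervals (scipy 1.17.1), which cover counting error only, as the reads carry no molecular identifiers. With 1 library per group no p-value was computed, and the FDR of the study could not be had. The script was tested on simulated data. Transcripts with at least 10% of a gene's reads in any library, or among its 3 highest, were called main transcripts. Only some of these 34 were described, beside a few others. In each list the 2 genes with the most reads and every gene past the limit were named. Clcn7, Ostm1, Ppp3cb, Ppp3cc, Cd68, genes under 20 reads and markers at 0 were named after their values were seen. A pair of genes that this rule names is not reported here. The members and lists were chosen with earlier results of these data known. Alternatives were other scalings, protein-coding transcripts only, FPKM, added lncRNA reads, a pseudocount of 1 rpm, a limit of 1.5 and other read minimums.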

Additional observations from a re-analysis of the deposited data

Results flagged for a closer look

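The circRNA table, which lies outside the comparisons above, listed 7 back-splice junctions in 3 members (Traf3, Nfatc1 and Mitf) among its 1372. A pair of Nfatc1 junctions stood above the limit that a count of 0 allows, while BMM-ABs had 0 reads on each. The junction from 80697555 to 80698656 on chromosome 18 had 0, 4 and 18 reads in the order BMM-ABs, pOC-ABs, mOC-ABs, and that from 80682159 to 80698656 had 0, 0 and 7. All 4 Nfatc1 junctions together had 3, 7 and 25 reads. Set against the gene's reads in the mRNA table this is 0.117% (0.024% to 0.341%), 0.253% (0.102% to 0.520%) and 0.295% (0.191% to 0.436%), with intervals that overlap in the 3 libraries. The values compare 3 libraries only. The RNA was selected on poly-T beads, and how far this selection affects the junction reads and these shares was not tested.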

How the results depend on the processing

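No paired analysis was possible because each group has 1 library and no result comes from a test. For the same reason no replicate could be left out. Of 210 recomputed log2 ratios of the members, 182 stayed within the counting interval of the reported value, 24 moved outside it, and 4 took the other sign although the interval of the reported value left out 0. All 4 of these were of Tfe3: over protein-coding transcripts only its G1, G2 and G3 ratios were 0.379, 0.0707 and -0.308, and over summed FPKM it was -0.0813 in G3. The number of members past the limit was the same in 23 of 24 recomputations. At a limit of 1.5 it was 1 in G1, with Ppp3r1. Scaling to the mRNA and lncRNA tables together shifted the median of all genes by -0.20 (G1), -0.10 (G2) and 0.10 (G3), and Nfatc1 then stood at 1.86 in G2 and 1.65 in G3. Traf2, Traf3 and Ppp3ca, whose intervals in G1 hold 0, took the other sign there under that scaling (-0.15, -0.19 and -0.12). Of other ratios whose interval holds 0, Tnfrsf11a in G2 and Traf3 in G2 and G3 also took the other sign under at least 1 alternative. The share of all genes past the limit depends on the read minimum and was 21.5% without one and 9.14% with at least 100 reads in G2. Shares by FPKM moved outside the interval in 46 of 60 cases. Depth limits low transcripts such as Mitf-201, where 8 reads are close to the floor of 3.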
